A study of Mus musculus with 9 samples.

Results

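Single untreated fibroblasts of the NIH3T3-CG line differed widely in Ccl2, the chemokine that draws monocytes, and the cells richest in it are described here against the cells in which it was not counted. Cells were kept when they held 15000 to 60000 unique molecular identifiers (UMIs, each tagging 1 captured RNA molecule) and at most 10% of them from mitochondrial genes. Of 4620 kept cells in the 3 libraries at 0 h, 776 had 5 or more Ccl2 UMIs and are called Ccl2-high, 2082 had 0 and are called Ccl2-negative, and 1762 had 1 to 4. The whole series held 11776 kept cells in 9 libraries. Since Ccl2 chose the cells, its own values are given as a description and were not tested.

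The study followed the response of this mouse embryonic fibroblast line to SAG, an agonist of the Hedgehog pathway, by 3' single-cell RNA sequencing after trypsin release. The groups at 0 h had no SAG: 1 library of Experiment 1 (103 high and 538 negative cells), 1 of Experiment 2 labelled as without Dox (281 and 1271) and 1 of Experiment 2 labelled with Dox (392 and 273). The libraries with SAG were taken at 17 h and 30 h in Experiment 1 and at 19 h and 30 h in Experiment 2, the latter both without and with Dox. All are 1 cell line, and nothing in the labels says whether the libraries came from separate cultures, so p-values here reflect only how far these libraries spread, and that spread may be technical.

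Fibroblasts are not only makers of matrix. When microbial products, cytokines or damage reach them they switch on chemokine genes through NF-kB, a transcription factor held in the cytoplasm by inhibitors such as IkB-alpha, and secreted chemokines then recruit leukocytes. Ccl2, Ccl7 and Ccl8 lie in the same cluster of CC chemokine genes, and Ccl2 and Ccl7 share receptors on monocytes. CXC chemokines such as Cxcl1 and Cxcl5 act mainly on neutrophils.

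The motifs of the factors named above were looked for in the 250 bases before the RefSeq transcription start (build GRCm38.p6). Windows of 5 chemokine or feedback genes are shown because the results turn on these genes and because they differ in the motifs they hold. Capitals mark a match, on either strand, to GGG, any 2 bases, TT, any base and CC (NF-kB), to TGANTCA (AP-1, the Fos and Jun factors) or to GAAA, any 2 bases and GAAA (the interferon-stimulated response element, ISRE). Each window is written 5′ to 3′ along the strand of its gene and ends 1 base before the start.
Ccl9 (chr11:83578637-83578886, minus strand): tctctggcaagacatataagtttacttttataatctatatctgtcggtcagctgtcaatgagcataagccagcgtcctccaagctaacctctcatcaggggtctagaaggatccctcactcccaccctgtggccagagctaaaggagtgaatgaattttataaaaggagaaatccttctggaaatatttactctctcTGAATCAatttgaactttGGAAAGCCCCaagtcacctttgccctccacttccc
Ccl8 (chr11:82114935-82115184, plus strand): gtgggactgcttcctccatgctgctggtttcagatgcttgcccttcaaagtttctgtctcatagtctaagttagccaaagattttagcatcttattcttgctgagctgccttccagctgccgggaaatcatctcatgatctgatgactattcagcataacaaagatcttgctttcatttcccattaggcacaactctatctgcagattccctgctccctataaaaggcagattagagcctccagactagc
Cxcl10 (chr5:92348890-92349139, minus strand): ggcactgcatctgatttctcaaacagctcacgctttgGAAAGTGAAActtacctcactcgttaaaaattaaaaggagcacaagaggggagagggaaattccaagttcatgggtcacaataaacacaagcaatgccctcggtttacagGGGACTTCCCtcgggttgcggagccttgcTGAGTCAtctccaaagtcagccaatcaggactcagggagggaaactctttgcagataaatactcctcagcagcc
Cxcl1 (chr5:90890995-90891244, plus strand): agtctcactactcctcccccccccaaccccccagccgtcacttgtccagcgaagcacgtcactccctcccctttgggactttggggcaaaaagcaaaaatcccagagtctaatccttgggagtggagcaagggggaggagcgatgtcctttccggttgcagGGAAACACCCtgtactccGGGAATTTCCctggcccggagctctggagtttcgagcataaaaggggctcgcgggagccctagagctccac
Nfkbia (chr12:55492648-55492897, minus strand): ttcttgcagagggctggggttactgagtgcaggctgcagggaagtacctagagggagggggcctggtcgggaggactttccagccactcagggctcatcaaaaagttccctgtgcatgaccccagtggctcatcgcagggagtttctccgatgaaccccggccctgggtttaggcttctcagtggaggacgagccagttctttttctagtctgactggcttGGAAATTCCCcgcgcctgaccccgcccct
The NF-kB letters begin 35 bases before the start of Ccl9, 29 bases before that of Nfkbia, 103 bases before that of Cxcl10, and 89 and 71 bases before that of Cxcl1. Cxcl10 also holds AP-1 letters 74 bases and ISRE letters 213 bases before its start, and Ccl9 holds AP-1 letters 53 bases before its start. None of the 3 motifs stands in the Ccl8 window. Windows not shown were those of Nfkbie and Runx1, both named below. Nfkbie held AP-1 letters 156 bases before its start and no NF-kB letters, and the 2 windows of Runx1 held none of the 3 motifs. Ccl2 and Ccl7 had no window in the sequences used. Over all 32851 promoter windows of the same length, 4.11% held the NF-kB letters, 6.75% the AP-1 letters and 2.98% the ISRE letters. A match of letters is a description and not a bound site.

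Ccl2 UMIs were spread unevenly over cells of the same library. The mean per kept cell was 2.52 in Experiment 1, 1.86 in Experiment 2 without Dox and 4.47 in Experiment 2 with Dox, and the variances were 91.5, 29.0 and 49.3, each many times its mean. High cells held 82.0%, 61.5% and 77.8% of all Ccl2 UMIs of the 3 libraries, in that order. In the high class Ccl2 stood at 501, 287 and 342 CPM (counts scaled to an equal library total), and the richest single cells carried 152, 201 and 90 UMIs. The threshold cut through a continuous tail: 17, 82 and 78 cells had 4 UMIs and 10, 65 and 78 had 5.

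**Figure D1:**
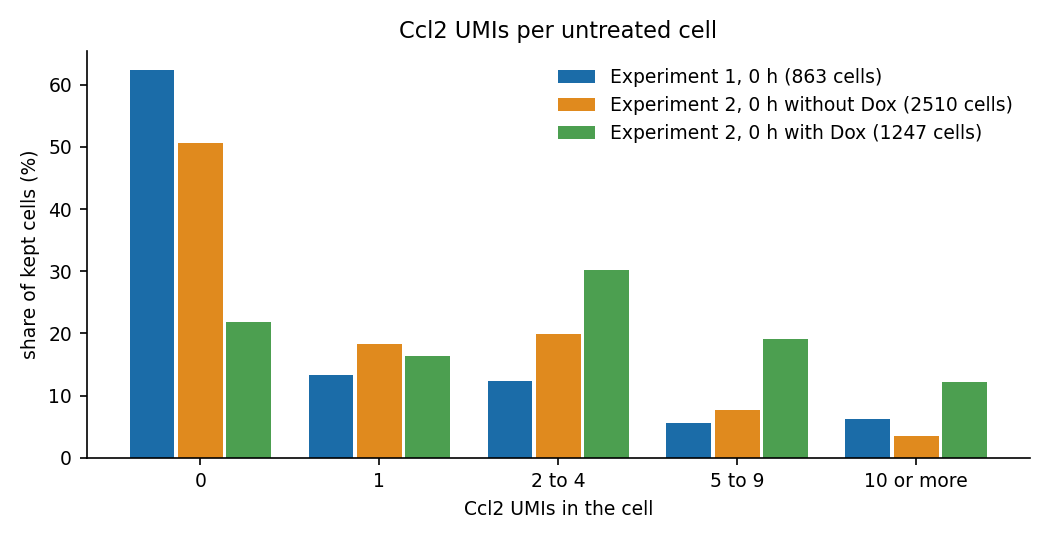
Share of the kept untreated cells (vertical axis, %) by the number of Ccl2 UMIs in the cell (horizontal axis), for the 3 libraries at 0 h, with no error bars since each bar is a count of cells. The count of cells with 0 UMIs is 538 of 863 for Experiment 1 and 1271 of 2510 for Experiment 2 lacking Dox, while in Experiment 2 with Dox 273 of 1247 have 0 and 392 have 5 or more.

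High cells were also deeper. The median cell held 32300 UMIs in the high and 29041 in the negative class of Experiment 1, and, in Experiment 2, 35101 and 28576 when Dox was absent and 31846.5 and 27177 when it was present. A cell with more RNA has a better chance of 5 Ccl2 UMIs. Main results in untreated cells are therefore also given with equal numbers of high and negative cells in each step of 5000 UMIs. This alternative was chosen after seeing the data. Both classes were fibroblasts by their markers: at an equal 15000 UMIs, 99.6% or more of the cells in each class and library had UMIs of at least 3 of 10 fibroblast markers. No cell of either class had 3 markers of macrophages and monocytes, neutrophils, endothelium, epithelium, adipocytes or nerve cells. Of 7 markers of smooth muscle and pericytes, at least 3 were found in 0.97% to 4.27% of cells, and their sum was 382, 323 and 445 CPM in high against 139.9, 355 and 385 CPM in negative cells; their part in the results was not tested. The 10 macrophage and monocyte markers summed to 9.32 to 28.9 CPM in the high and 11.3 to 22.0 CPM in the negative classes; Ptprc, which marks all leukocytes, was at 0 in all but the high class of Experiment 2 without Dox, at 0.10 CPM. Any 2 libraries shared at most 3 cell barcodes.

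Counts were summed over the high and over the negative cells of each library and compared across 11103 genes, paired by library, with edgeR's quasi-likelihood test. In high cells 68 genes were higher, 0.612% of those tested, and 1 was lower, 0.00901% (adjusted p under 0.05). Of the lists used, those of CC chemokines and of G2 and mitosis held more than 1 called gene.

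The CC chemokines Ccl7, Ccl8 and Ccl9 rose together with Ccl2. Ccl7 (chromosome 11, 82045712 to 82047525, plus strand), a monocyte attractant encoded next to Ccl2, stood at 72.4, 36.6 and 53.9 CPM in negative cells and at 315, 109 and 172 CPM in high cells of Experiment 1, Experiment 2 without Dox and Experiment 2 with Dox. All 3 high sums lay above all 3 negative sums. The log2 change of Ccl7 was 1.71, with SE 0.12 and adjusted p = 0.00809, and it had the smallest p of all genes tested. At an equal 15000 UMIs, 86.4%, 70.5% and 83.9% of high cells had a Ccl7 UMI, against 44.8%, 34.1% and 47.6% of negative cells; unthinned, the shares were 96.1%, 89.7% and 96.2% against 58.2%, 48.9% and 60.8%. The libraries hold 1 cell line, so no cell type that lacks these genes was there to measure free RNA, and its part in these shares was not tested.

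Ccl9, whose product attracts myeloid cells, went from 6.60, 3.75 and 3.30 CPM to 41.3, 24.8 and 7.58 CPM. Its groups did not overlap, though the high sum with Dox came close to the negative sum of Experiment 1. The rise was 2.29 (SE 0.25, adjusted p = 0.0177). Ccl8, a further gene of the CC cluster of Ccl2, measured 35.0, 15.4 and 46.7 CPM in negative and 100.01, 23.8 and 106 CPM in high cells. The libraries thus overlapped between classes while each pair of Ccl8 values moved up. Ccl8 rose by 1.04 (SE 0.16, adjusted p = 0.038). Ccl5, which attracts T cells and monocytes, did not pass the test (1.74, SE 0.68, adjusted p = 0.282): it measured 157, 86.0 and 10.6 CPM in high against 8.46, 31.4 and 14.2 CPM in negative cells, and 1 cell of Experiment 1 held 453 of the 559 UMIs of its class. Of 10 members of the CC list other than Ccl2, 4 were tested and 3 were called higher; their median change was 1.73, against -0.03 over all genes tested. With equal cells per UMI step the changes were 1.99 for Ccl7 (adjusted p = 0.000221), 2.21 for Ccl9 (0.0128) and 1.38 for Ccl8 (0.00911), in a comparison where 0.151% of 10619 genes were called higher.

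**Figure D2:**
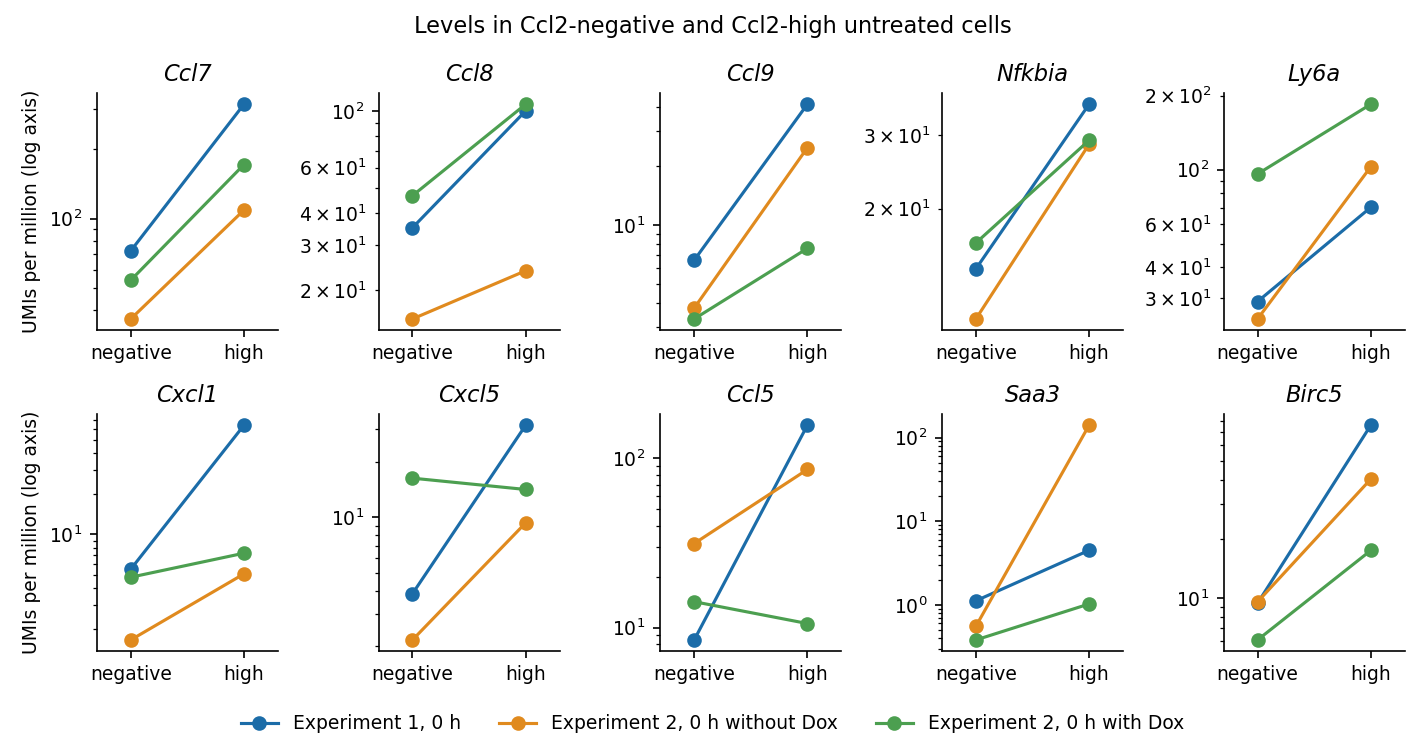
Levels in CPM (vertical log axes, which differ between panels) of 10 genes in the summed Ccl2-negative and Ccl2-high cells (horizontal axis), with a line joining both classes of each of the 3 untreated libraries. Lines for Ccl7, Ccl8, Ccl9, Nfkbia, Ly6a and Birc5 all rise; those of Cxcl5 and Ccl5 rise in 2 libraries and not in Experiment 2 with Dox, and Saa3 jumps to 140.5 CPM in 1 library.

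For the neutrophil-attracting CXC chemokines and the acute-phase gene Saa3, as for Ccl5, much of the count in high cells came from single cells, to a degree that varied by gene and library. Cxcl1 measured 63.8, 5.11 and 7.26 CPM in high against 5.54, 1.67 and 4.83 CPM in negative cells. It was higher in all 3 pairs, but its change of 2.04 (SE 0.46) did not pass the test (adjusted p = 0.108). In Experiment 1, 155 of its 227 UMIs in high cells came from 1 cell, and in Experiment 2 without Dox 36 of 51 came from another. Cxcl5 went the same way in Experiment 1 (31.5 against 3.86 CPM) and in Experiment 2 without Dox (9.32 against 2.17 CPM) and not with Dox (14.1 against 16.3 CPM), and did not pass (1.47, SE 0.50, adjusted p = 0.235). The richest cell held 47 of its 112 UMIs in high cells of Experiment 1 and 61 of 93 in those of Experiment 2 lacking Dox. Saa3, an acute-phase apolipoprotein, stood at 4.49, 140.5 and 1.03 CPM in high and 1.12, 0.56 and 0.38 CPM in negative cells. It too did not pass (6.15, SE 1.15, adjusted p = 0.069), and 1354 of the 1401 UMIs behind the 140.5 CPM lay in 1 cell.

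Those 2 cells were unlike the rest of their class. The cell of Experiment 1 (59092 UMIs, of which 5.78% mitochondrial) carried 65 Ccl2, 33 Ccl7, 453 Ccl5, 155 Cxcl1, 47 Cxcl5, 15 Saa3 and 25 Nfkbia UMIs. The cell of Experiment 2 without Dox (46749 UMIs, 7.91% mitochondrial) carried 201 Ccl2 UMIs, the most of any cell there, with 54 of Ccl7, 1354 of Saa3, 61 of Cxcl5, 36 of Cxcl1 and 27 of Lcn2, an iron-sequestering defence protein. Over the CXC and acute-phase lists together they held 226 and 1494 UMIs, against medians of 5 and 2 in their classes and 30 and 59 in the next cells. Both had 0 UMIs of the leukocyte genes Ptprc, Adgre1 and Tyrobp. Of genes that fibroblasts express they held 30 and 35 UMIs of Fn1 and 55 and 34 of Vim. They held few of the collagens: 0 and 2 UMIs of Col1a1 and 2 and 5 of Col1a2. Their high classes stood at 1602 and 662 CPM of Col1a2, 2324 and 1104 CPM of Fn1 and 3384 and 2115 CPM of Vim. Scaled to the 59092 and 46749 UMIs of these cells, their counts of Fn1 and Vim also lay below the class levels. Leaving out the richest such cell of each library, an alternative chosen after seeing the data, brought Cxcl1 to 0.84 (adjusted p = 0.289), Cxcl5 to 0.67 (0.456) and Saa3 to 1.82 (0.281), while Ccl7 remained at 1.68 (0.0117), and 67 of the 68 higher genes were called again.

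Cxcl10, an attractant of T cells made in response to interferon, was called higher (4.90, SE 0.51, adjusted p = 0.0167) on very few molecules. High cells held 33, 32 and 18 of its UMIs, spread over 1.94%, 3.91% and 2.81% of the cells, and negative cells 1, 6 and 1. In Experiment 1, 30 of the 33 came from 1 cell. It passed the filter on low counts through the high cells alone, so its call and its fold carry little weight. It was the 1 gene called of 6 tested on the list of other chemokines.

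Of the NF-kB feedback and target genes, Nfkbia was called. It encodes IkB-alpha, which NF-kB itself induces and which carries NF-kB back out of the nucleus. Nfkbia measured 14.3, 10.8 and 16.5 CPM in negative and 35.7, 28.6 and 29.2 CPM in high cells, without overlap, and rose by 1.11 (SE 0.14, adjusted p = 0.0248). With equal cells per UMI step it rose by 0.97 (adjusted p = 0.0377); among cells of 15000 to 30000 UMIs the change was 0.55 (0.396) and among cells at or below the median share of cell cycle UMIs 0.68 (0.405), both no longer past the threshold. Nfkbia was the 1 gene of 21 tested on its list that was called with all cells, also by DESeq2. With negative cells matched on UMIs to the high cells, 0 of 21 tested on this list were called. That matching left 32 negative cells in Experiment 2 with Dox. Nfkbie, a related inhibitor, measured 4.21 ± 0.81 CPM in high and 1.51 ± 0.17 CPM in negative cells (SD, n = 3 libraries), a change of 1.48 (SE 0.27, adjusted p = 0.066). Tnfaip3, the ubiquitin-editing enzyme A20, stood at 0.92 (SE 0.36, adjusted p = 0.278), Birc3, an inhibitor of apoptosis, at 0.61 (0.34), the adhesion molecule Vcam1 at 0.23 (0.514) and the mitochondrial superoxide dismutase Sod2 at 0.04 (0.88). The list's median change was 0.20. Of its 21 tested genes, 10 were higher and 1 was lower in all 3 libraries, beside 2714 and 1622 of all 11103 genes.

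By edgeR no gene passed on the lists of NF-kB machinery (0 of 22 tested), inflammatory receptors (0 of 16), cytokines and prostanoid enzymes (0 of 12), acute-phase genes (0 of 5) and interferon response (0 of 24). At an unadjusted p under 0.05, 2, 3, 5, 2 and 11 of them were higher, in that order, and 1, a receptor gene, was lower, beside 1018 higher and 699 lower of all 11103 genes. DESeq2, which called 1.59% of all genes higher and 0.108% lower (1.7% in all), called 2 of the cytokine and prostanoid genes and 2 of the interferon genes higher and none on the other 3 lists. Hbegf, a growth factor of the EGF family, measured 18.2 ± 5.44 against 8.88 ± 0.47 CPM (0.92, SE 0.17, adjusted p = 0.0653), and Csf1, the macrophage growth factor, 67.1 ± 30.0 against 36.6 ± 9.61 CPM (0.74, SE 0.24, adjusted p = 0.217). Ptgs2, which makes prostaglandins, was at 152, 36.6 and 18.2 CPM in high and 100.4, 40.9 and 19.2 CPM in negative cells (0.06, SE 0.14, adjusted p = 0.88): the libraries differed more than the classes. In the interferon list the transcription factor Irf1 stood at 0.98 (adjusted p = 0.0723) and the class I molecule H2-K1 at 0.80 (0.073), with 16 of 24 members higher in all 3 libraries and a list median of 0.37; over all genes 2714 of 11103 were higher in all 3.

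Genes of other programmes showed wide spread between libraries. Fosl1, an AP-1 subunit, measured 42.7, 10.1 and 6.63 CPM in high against 2.12, 4.26 and 1.27 CPM in negative cells (2.48, SE 0.50, adjusted p = 0.0835); it was called (2.76, adjusted p = 0.00708) with cells thinned to 15000 UMIs and the classes set again on the thinned Ccl2 UMIs, which left 54, 94 and 160 high cells. Ccnd1, cyclin D1, measured 91.9, 27.7 and 40.7 against 2.61, 10.8 and 18.2 CPM (2.22, SE 0.62, adjusted p = 0.169). Zfp36, which speeds decay of inflammatory mRNAs, was lower in each pair (-0.63, SE 0.18, adjusted p = 0.175). The matrix regulators Plaur (1.10, SE 0.23, adjusted p = 0.0927) and Timp1 (0.46, SE 0.12, adjusted p = 0.15) and the serine synthesis enzyme Psat1 (0.77, SE 0.17, adjusted p = 0.095) were higher in each pair and did not pass. On the p53 and senescence list 1 of 13 tested genes was called: Trp53inp1, a p53 target, measured 22.8, 5.61 and 14.7 CPM in high against 39.0, 14.2 and 25.9 CPM in negative cells and fell by 1.04 (SE 0.15, adjusted p = 0.0316). It was the 1 gene called lower, and was at -0.84 (adjusted p = 0.0974) with equal cells per UMI step. Mdm2, a p53 target that degrades p53, was at -0.55 (SE 0.11, adjusted p = 0.073). The chaperone Hsp90b1 was at -0.49 (SE 0.14, adjusted p = 0.181); 10 of 15 chaperones of the endoplasmic reticulum on its list were lower in all 3 libraries and 0 higher, beside 1622 of all 11103 genes lower in all 3. Neither edgeR nor DESeq2 called a ribosomal protein gene (0 of 40), mitochondrially encoded gene (0 of 13), matrix gene (0 of 27) or Hedgehog pathway gene (0 of 9). At an unadjusted p under 0.05, 1, 1, 5 and 0 of them differed. Of the 40 ribosomal protein genes 15 were lower in all 3 libraries and 0 higher, with a list median of -0.17.

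The list with most called genes was that of G2 and mitosis. Of 27 G2 and mitosis genes tested 21 rose, none fell, and the list's median change was 1.52. Birc5, survivin, a subunit of the complex that guides chromosomes, had 75.9, 40.3 and 17.4 CPM in high and 9.40, 9.54 and 6.10 CPM in negative cells and rose by 2.18 (SE 0.22, adjusted p = 0.0166). Other large rises were those of Aurkb, its kinase partner (2.17), Pimreg, a mitotic regulator (2.10), the spindle proteins Nusap1 (2.03), Aspm (1.94) and Hmmr (1.81), the contractile ring protein Anln (1.83), the proliferation marker Mki67 (1.76) and the histone genes Hist1h1b (1.82) and Hist1h3c (1.75), with adjusted p of 0.0114 to 0.0455. Histone genes are near-identical copies, so their counts are less certain. Cks2, a partner of cyclin-dependent kinases, rose by 1.52 (SE 0.13, adjusted p = 0.0114) and Cenpa, the centromeric histone, by 1.34 (SE 0.13, adjusted p = 0.0114). Of 26 genes of G1/S and DNA replication 1 was called, the thymidylate synthase gene Tyms (1.29, SE 0.19, adjusted p = 0.0349), with a list median of 0.93.

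At 15000 UMIs, 25.2%, 19.2% and 6.89% of high cells had a Birc5 UMI, against 5.02%, 5.43% and 2.56% of negative cells (unthinned, 30.1%, 23.5% and 8.67% against 6.88%, 7.08% and 3.30%). Cell depth moved with this group. With equal cells per UMI step 4 of the 27 genes were called higher and the median fell to 0.93; Birc5 then stood at 1.53 (adjusted p = 0.0203), Mki67 at 1.26 (0.129), Aurkb at 1.33 (0.3), Cenpa at 0.67 (0.0974) and Tyms at 0.88 (0.154). With negative cells matched on UMIs, 0 of the 27 were called (median 0.81), in a fit that called 10 of 10526 genes higher. With cells thinned to 15000 UMIs and classes set on thinned Ccl2 UMIs, 13 of 27 were called (median 1.54). That fit called 0.769% of all genes higher and 0.03% lower. Among cells at or below the median share of cell cycle UMIs, edgeR called 10 genes higher, 0.101% of 9887. They included Ccl7 (1.82, adjusted p = 5.37e-05), Ccl8 (1.36, adjusted p = 0.00599) and Ccl9 (1.89, adjusted p = 0.0247). That share is made of the UMIs of these 27 genes and of the G1/S and DNA replication list. Of the 27, 5 could be tested there and 0 were called, which the choice of cells itself brings about.

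**Figure D3:**
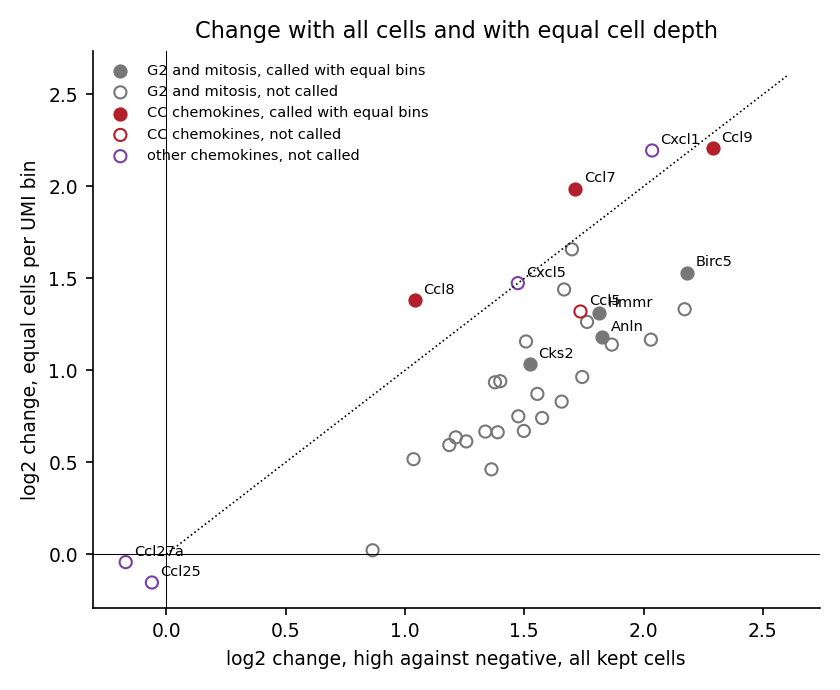
Log2 change between Ccl2-high and Ccl2-negative untreated cells with all kept cells (horizontal axis) and with equal numbers of cells per step of 5000 UMIs (vertical axis), 1 point per gene of the G2 and mitosis list and of 2 chemokine lists, filled where edgeR called the gene with equal steps; the dotted line marks equal values. The G2 and mitosis genes lie below the line. Among the chemokines, Ccl7, Ccl8 and Cxcl1 lie above it at 1.99, 1.38 and 2.20, and Ccl9 and Ccl5 below it at 2.21 and 1.32.

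With equal cells per UMI step 16 genes were higher, 14 of which had also been called with all cells. Beside Ccl7, Ccl8, Ccl9, Nfkbia, Birc5, Cks2, Hmmr and Anln these were Sox9 and, named after their values were seen, Ly6a, Ly6c1, Ly6e, Runx1 and Ank. Ly6a, Ly6c1 and Ly6e encode lipid-anchored surface proteins that interferon can induce, and Ly6a is the stem cell antigen Sca-1 of fibroblasts and progenitors. Ly6a measured 70.2, 103 and 184 CPM in high against 29.1, 24.7 and 96.0 CPM in negative cells, higher in each pair, and rose by 1.36 (SE 0.21, adjusted p = 0.0391). Ly6e, with 146 ± 40.1 against 66.3 ± 11.5 CPM (SD, n = 3), rose by 1.05 (SE 0.12, adjusted p = 0.024). Ly6c1, with 6.18, 17.2 and 41.3 against 2.05, 4.55 and 20.3 CPM, rose by 1.43 (SE 0.20, adjusted p = 0.0285). These are related genes in 1 family, so reads of near-identical stretches may have been shared between them. Sox9, a transcription factor of cartilage and progenitor cells, rose by 2.07 (SE 0.31, adjusted p = 0.038; 92.4, 11 and 28.6 against 11, 2.30 and 13.9 CPM). Runx1, a transcription factor of blood and mesenchyme, rose by 1.02 (SE 0.13, adjusted p = 0.0248) and Ank, which exports pyrophosphate, by 1.10 (SE 0.16, adjusted p = 0.0332). Among cells at or below the median cell cycle share, Ly6a (1.48, adjusted p = 0.00599), Ly6c1 (1.58, 0.0236) and Ly6e (0.81, 0.0332) were called and Sox9 (0.87, 0.402), Runx1 (0.56, 0.402) and Ank (0.95, 0.124) were not.

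Across finer steps of Ccl2, which share the libraries and depths above and were not tested, Ccl7 rose stepwise in each library. In cells with 0, 1, 2 to 4, 5 to 9 and 10 or more Ccl2 UMIs it measured 72.4, 127, 217, 249 and 361 CPM in Experiment 1. The same steps gave 36.6, 52.0, 65.5, 91.1 and 143 CPM without Dox and 53.9, 72.1, 104, 155 and 195 CPM with Dox. Ccl7 thus already differed between cells with 0 and with 1 Ccl2 UMI. Nfkbia kept a near flat level up to 4 Ccl2 UMIs in Experiment 1 (14.3, 13.0 and 13.4 CPM) and went to 29.3 and 40.2 CPM above it, with 33.3 and 40.1 CPM in the top step of the other libraries. Cxcl1 was at 98.0 CPM in the top step of Experiment 1 and at 12.4 and 6.05 CPM in that of the others.

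**Figure D4:**
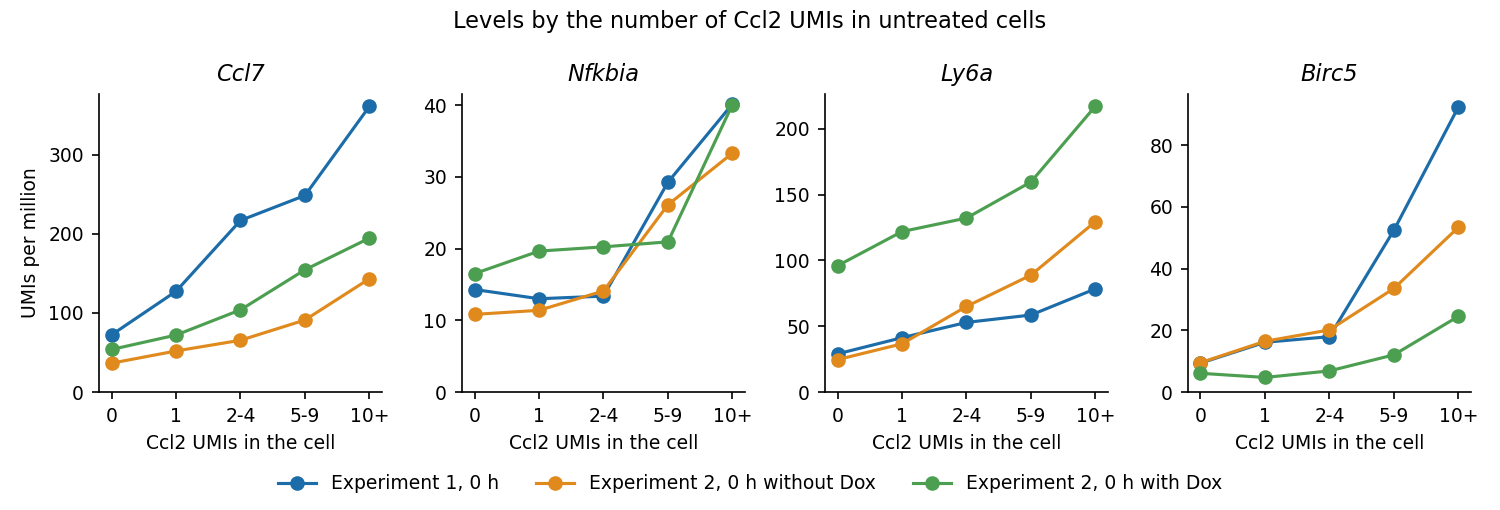
Levels in CPM (vertical axes from 0, which differ between panels) of Ccl7, Nfkbia, Ly6a and Birc5 in untreated cells grouped by Ccl2 UMIs (horizontal axis), 1 line per library, each point a sum over the cells of the step and without error bars. Ccl7 and Ly6a climb over all steps, and Birc5 is highest in the last step of each library, at 92.3, 53.4 and 24.5 CPM.

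Promoter windows were found for 48 of the 69 called genes, and 7 of them, 14.6%, held the NF-kB letters, against 4.6% of the 8669 tested genes with a window. Those 7 were Ccl9, Nfkbia and Cxcl10, shown above, of which Cxcl10 had passed the filter through its high cells alone, and Birc5, Kif23, Rangap1 and Tuba1c, which serve division or the cytoskeleton. AP-1 letters stood in 2 of the 48 (4.17%) and ISRE letters in 3 (6.25%), against 4.0% and 2.6% of the tested genes.

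The same contrast in SAG-treated libraries, whose cells the choice of genes above did not use, was taken in the 5 libraries with at least 20 cells in each class; the library at 30 h of Experiment 1, with 18 high cells, was left out. There 1268 of 10906 genes were higher and 1065 lower in high cells, 11.6% and 9.77%, so that single calls carry less weight. High cells held a median of 40563 to 51956 UMIs in these libraries and negative cells 29685.5 to 42770. No fit with equal cells per UMI step was made with SAG. With cells thinned to 15000 UMIs and classes set on thinned Ccl2 UMIs, only the libraries at 19 h of Experiment 2, with 28 and 23 high cells, reached the minimum of 20. In those 2 libraries 211 genes were higher and 193 lower (1.94% and 1.77%, 3.71% in all), so that cells and libraries were lost along with depth. Of the 68 genes higher in untreated cells 64 were tested and 62 were called higher here, none lower, with a median change of 1.69. Ccl7 rose by 2.24 (SE 0.13, adjusted p = 4.19e-05), with differences of 2.12, 2.09, 2.13, 2.22 and 2.75 in the 5 libraries. Ccl9 rose by 3.16 (SE 0.24, adjusted p = 5.20e-05), Nfkbia by 1.52 (SE 0.11, adjusted p = 5.20e-05), Nfkbie by 2.09 (SE 0.20, adjusted p = 0.000135), Fosl1 by 3.67 (SE 0.30, adjusted p = 6.32e-05) and Birc5 by 2.24 (SE 0.24, adjusted p = 0.000229). Trp53inp1 fell by 1.28 (SE 0.15, adjusted p = 0.00044). Of 21 NF-kB feedback and target genes tested with SAG, 10 were called higher and 0 lower, beside the 11.6% and 9.77% of all genes.

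Cxcl1 and Cxcl5 did not pass in SAG-treated cells, with changes of 0.18 (adjusted p = 0.816) and -0.11 (adjusted p = 0.803), and neither did Ccl8 (0.41, SE 0.27, adjusted p = 0.312). Whether the contrast differed between treated and untreated cells was tested over 8 libraries, and edgeR called 0 of 11038 genes (777 at an unadjusted p under 0.05; DESeq2 called 23). In this test too, SAG and time of collection cannot be told apart. The difference was 0.52 for Ccl7 (adjusted p = 0.663), 0.86 for Ccl9 (0.704), 0.40 for Nfkbia (0.678) and -1.82 for Cxcl1 (0.663). Without the library at 17 h of Experiment 1, 40 genes were called in the difference, and none of these 4 was among them. In simulated data with known changes this test called 61% of genes changed 2-fold and 96% of those changed 4-fold. These data were drawn with a single dispersion (spread between libraries) of 0.0166. Recovery of genes with a wider spread was not tested.

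High cells were scarcer in the SAG libraries. All libraries without SAG were taken at 0 h and all with SAG at 17 h to 30 h, so SAG and time cannot be told apart. At an equal 15000 UMIs, 6.26% of untreated cells of Experiment 1 had 5 or more Ccl2 UMIs (exact Clopper-Pearson 95% interval 4.74% to 8.09%), 3.75% without Dox (3.04% to 4.56%) and 12.8% with Dox in Experiment 2 (11% to 14.8%). The shares in SAG-treated cells were 2.37% at 17 h and 1.24% at 30 h in Experiment 1, 1.41% and 0.14% at 19 h and 30 h without Dox, and 1.45% and 0.70% with Dox. Every SAG library lay below the untreated library of its own arm. The mean difference within arms was 6.39 percentage points. No test is given, since the share is made of the Ccl2 UMIs that chose the cells. The lower Ccl2 of the SAG libraries was also known when the cells were chosen. The untreated libraries with and without Dox are 1 each, and their difference was not tested.

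**Figure D5:**
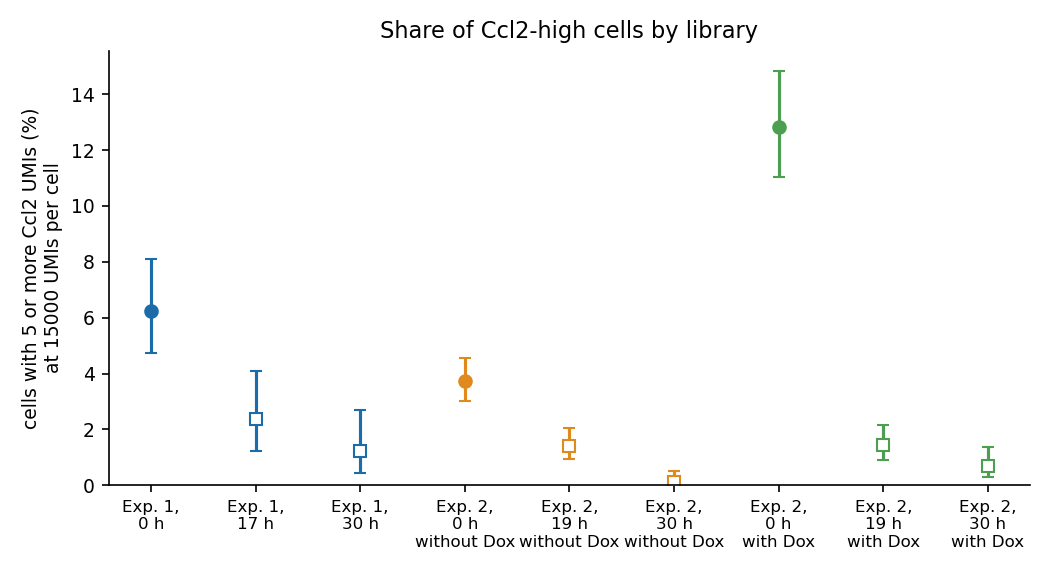
Share of cells with 5 or more Ccl2 UMIs (vertical axis, %) after thinning every cell to 15000 UMIs, by library (horizontal axis; filled circles untreated, open squares SAG, colours the 3 arms), with exact 95% binomial intervals that cover counting error only. The untreated libraries stand at 6.26%, 3.75% and 12.8%, each above the SAG libraries of its arm, at 0.14% to 2.37%.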

How the data were processed

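UMI counts per gene and cell barcode were deposited for 9 libraries as matrices of whole numbers; per the file headers they were written by software version 3.1.0 (Experiment 1) and 6.0.1 (Experiment 2), and the submitters' processing notes name Cell Ranger and the build mm10. The 30407 genes shared by identifier were kept. The 3 untreated libraries held 38743296, 152207128 and 72645052 UMIs, and the mitochondrial limit removed 23.6%, 42.2% and 45.3% of their barcodes of 15000 to 60000 UMIs.

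Counts were summed per class and library and tested with edgeR 4.0.16 (filterByExpr, TMM, quasi-likelihood, library as block, Benjamini-Hochberg over all genes; R 4.3.3), with DESeq2 1.42.0 as an alternative. High and negative cells of a pair come from 1 library, which is where the pairing comes from. CPM are summed counts over the class total; thinning drew 15000 UMIs per cell; shares of cells with a UMI kept the raw classes, and fits on thinned cells set the classes again. In simulated counts the untreated test called 90% of genes changed 2-fold and 95% of those changed 4-fold. These counts were drawn with a single dispersion (spread between libraries) of 0.0173. Recovery of genes with a wider spread was not tested. Genes were named as the 12 called genes of largest change in each direction reaching 10 CPM, and up to 4 per list by smallest p, with more for inflammatory lists. The classes, members and lists were chosen with earlier results of these data known. Doublets were not called, beyond the limit of 60000 UMIs. Use of strand in counting is not given in the sources used here, so antisense and near-identical genes are less certain. Intervals cover counting error only.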

Additional observations from a re-analysis of the deposited data

Results flagged for a closer look

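In 5 of 44 named genes 1 of the 5 SAG libraries stood far from the other 4 in the log2 difference between high and negative cells, where chance gives about 1 in 20. Ccl7 stood out at 2.75 in Experiment 2 at 30 h with Dox. Experiment 1 at 17 h, which had 21 high cells, stood out at -1.10 for Birc3, at 1.93 for H2-K1 and at 6.05 for Ccnd1. Ly6e stood out at 1.54 in Experiment 2 at 30 h without Dox.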

How the results depend on the processing

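In untreated cells the number of genes higher and lower was 177 and 12 with DESeq2, 566 and 245 with no filter on low counts, 232 and 25 with 10 or more Ccl2 UMIs as high, and 240 and 16 against cells with 1 to 4. It was 23 and 0 at 15000 to 30000 UMIs, 12 and 0 at 30000 to 60000, 15 and 2 with at most 5% mitochondrial UMIs, 10 and 0 at or below the median cycle share and 16 and 0 with equal cells per UMI step. Matching negative cells on UMIs gave 10 higher, and thinning 3 lower. Without the replicate block, which ignores the pairing by library, edgeR called 0 higher and 0 lower (250 at an unadjusted p under 0.05) and, with SAG, 70 and 22. Leaving out 1 library gave 125 to 898 higher and 2 to 466 lower (898 and 466 without Experiment 1, 125 and 2 without Experiment 2 lacking Dox, 497 and 99 without Experiment 2 with Dox). With SAG this gave 635 to 2000 higher and 433 to 1742 lower (2000 and 1742 without Experiment 1 at 17 h), and thinning 211 and 193 in the 2 libraries that kept 20 high cells. The difference with SAG had 11 higher and 12 lower by DESeq2, and 0 to 18 and 0 to 22 with 1 library left out. The share of high cells was lower in the SAG libraries by 3.71 to 8.10 points with 1 library left out. The gap was 13.7 points on raw counts. At 15000 UMIs it was 13.4 with 3 or more and 1.79 with 10 or more Ccl2 UMIs as high. The cause of these moves was not tested. Of 25 named called genes 25 were called again in each fit without 1 library, fits that called more genes in all. It was 25 of 25 by DESeq2, 22 of 25 thinned, 14 of 24 with equal cells per UMI step and 7 of 24 matched on UMIs. At 15000 to 30000 UMIs it was 10 of 19, at 30000 to 60000 10 of 25, and at or below the median cycle share 6 of 14. Without the block it was 0 of 25. With at most 5% mitochondrial UMIs, where Experiment 1 kept 5 high cells, it was 2 of 19.

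Signs turned only in named values that had missed the threshold, except Hist1h1b, at -0.44 at or below the median cycle share. With SAG, Ccl5 was at -0.16 and Cxcl1 at -0.0555 by DESeq2, and Cxcl5 at 0.0204 without the block; leaving out 1 library gave -0.0033 to 0.61 for Ccl8, -0.11 to 1.27 for Ccl5 and -0.29 to 0.44 for Cxcl1. In untreated cells Sod2 was at -0.0027 with 3 or more UMIs as high, -0.14 with at most 5% mitochondrial UMIs, -0.0849 without the richest cells and -0.0021 to 0.12 without 1 library; Ptgs2 was at -0.18 when matched, -0.0616 at 30000 to 60000 UMIs and -0.15 to 0.21 without 1 library; Zfp36 was at 0.50 with at most 5% mitochondrial UMIs.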

Other observations

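The lists of cholesterol synthesis and of chaperones of the endoplasmic reticulum held no call. Of 20 cholesterol synthesis genes tested edgeR called 0 and DESeq2 0; 14 were higher in high cells in all 3 untreated libraries, beside 2714 of all 11103 genes, and 10 were higher at an unadjusted p under 0.05, beside 1018 (list median 0.56). Of 15 chaperones 0 were called by either tool, and 8 were lower at an unadjusted p under 0.05, beside 699 of all genes (list median -0.37). With equal cells per UMI step, Tmem176a (1.40, adjusted p = 0.0377 by edgeR), a membrane protein gene, and Prl2c2 (2.29, adjusted p = 0.0396), the proliferin of growing fibroblasts, were called higher and had not been with all cells; both were named after their values were seen.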
